A study of Mus musculus with 18 samples.

Results

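The comparison described here is between mouse bladders taken 3 days and 1 day after cyclophosphamide, in mice on the normal diet. It takes in 6 of the study's 18 libraries, chosen by their labelled diet, injection and day and not by any measured value, and all named genes of the deposited count table entered it. All mice were wild-type BALB/c females aged 8 weeks, and each library holds total RNA of a whole urinary bladder that the labels call a biological replicate. Both groups (3 libraries each) ate the normal diet and received cyclophosphamide intraperitoneally at 150 mg/kg, so they differ in the day of collection. Beside them stand 3 bladders of saline-injected mice on the normal diet, taken at 1 day. The 18 libraries hold no saline bladder at 3 days, so that a comparison of 3 days with saline differs in drug and in day. A further 6 bladders, 3 at each day after the same dose, came from mice fed a vitamin A diet from 1 week before the injection. That diet held retinyl acetate at 566081 UI in each kg by the labels, whereas the series text names retinyl palmitate. Mice were housed in groups of 3, cages are not given per mouse, and cage and group cannot be told apart.

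Cyclophosphamide is a DNA-alkylating drug, and a breakdown product of it, acrolein, collects in urine and damages the urothelium, the layered epithelium that lines the bladder. The urothelium consists of surface umbrella cells coated with uroplakins, intermediate cells, and basal cells marked by keratin 5. Under it lies the lamina propria, where fibroblasts lay down collagen, elastic fibres and the enzymes that crosslink and cut them, and then the smooth muscle of the bladder wall. After loss of the surface the remaining urothelial cells divide, and basal cells release Sonic hedgehog, to which the stroma answers with Wnt and BMP signals. The question of the comparison is which genes change while the bladder passes from early injury to repair.

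The 6 libraries held 21031191 to 34202891 counts. Depth moved with the day, since the libraries at 1 day had at most 24912489 counts and those at 3 days at least 29131065. Mitochondrial genes took 2.419% to 2.641% of counts at 1 day and 1.993% to 2.078% at 3 days, again with no overlap. Genes shorter than 1000 bases took 9.764% to 10.8% at 1 day and 7.655% to 9.593% at 3 days. The 10 most abundant genes took 5.01% to 5.333% and 4.523% to 4.726%, so these shares did not overlap either. With all libraries thinned to equal depth 233 genes were higher and 49 lower at 3 days, beside 236 and 42 without thinning. The part of the mitochondrial share, of the share of short genes and of that of the most abundant genes in the results was not tested. Levels are given below as CPM, the counts of a gene scaled to equal totals of named genes in each library (counts per 1e+06), for replicates 1, 2 and 3 in that order, or as mean ± SD (n = 3). The defining markers of the tissue were present, with Upk2 at 547 to 709 CPM, Krt5 at 1529 to 2088 CPM and Myh11 at 1712 to 4572 CPM over the 6 libraries. RNA came from whole bladders, so fewer cells of a type and less RNA per cell cannot be told apart.

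Of 19323 genes tested, 236 (1.22%) were higher at 3 days and 42 (0.217%) lower, at an adjusted p under 0.05 in edgeR's quasi-likelihood test. The change was over 2-fold in 195 of the higher and 20 of the lower genes, and the median log2 change over all tested genes was -0.01. An unadjusted p under 0.05 was found for 2184 genes. Protein-coding genes made up 234 of the 236 and 38 of the 42. Counts of called genes rested on single libraries: 61 genes were higher without replicate 1 at 1 day, 96 without replicate 3 at 1 day, 101 without replicate 2 at 3 days and 117 without replicate 3 at 3 days. In the same 4 fits 12 to 14 genes were lower. Genes of the extracellular matrix and of fibroblasts were the most frequent among the higher genes that belong to any of the 41 gene lists used here, and glutathione enzymes and haemoglobins among the lower ones. In all, 61 of the 236 and 14 of the 42 belong to at least 1 list.

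**Figure D1:**
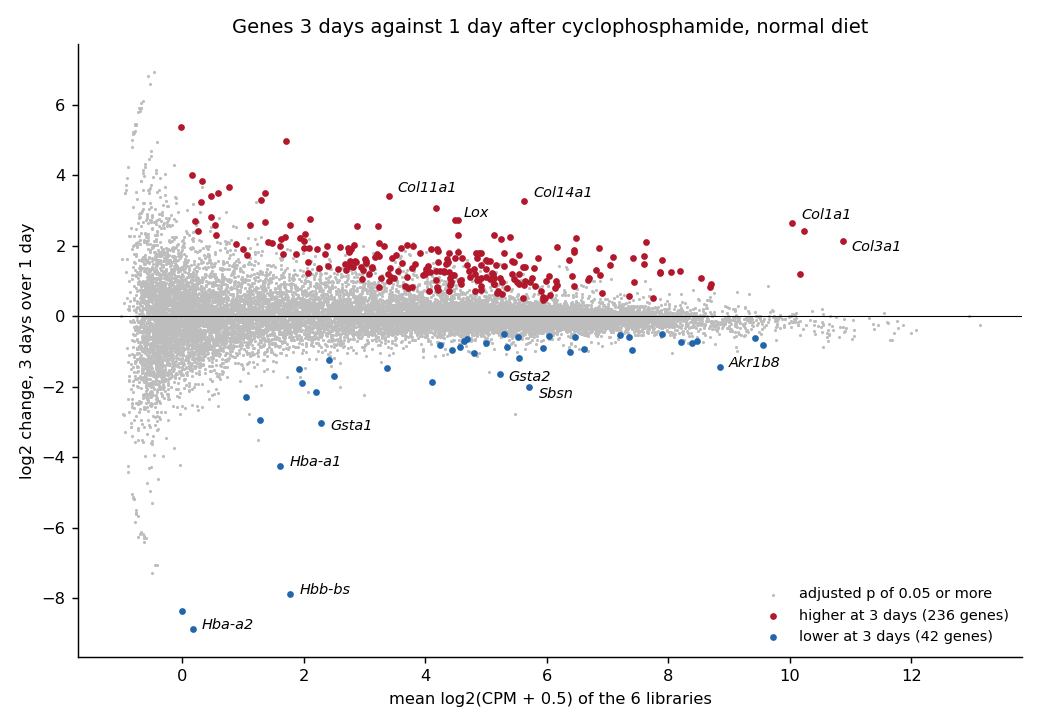
Each point is 1 of 19323 tested genes, with the mean log2(CPM + 0.5) over the 6 libraries on the x axis and the log2 change from 1 to 3 days on the y axis. Red points are the 236 higher and blue points the 42 lower genes. Fibrillar collagens stand at the upper right and haemoglobins at the lower left.

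Collagens rose more often than any other list: 15 of the 32 tested members were higher and 0 lower, against 1.22% and 0.217% of all genes. The median log2 change of the list was 1.21, and 29 members were above 0. In the fits without 1 library, 10 to 15 collagens were higher. The summed level of the list was 3621 to 4800 CPM at 1 day and 11030 to 16800 CPM at 3 days, with 7599 to 8374 CPM after saline.

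Col1a1 and Col1a2 encode the chains of type I collagen, the main fibre of connective tissue. Col1a1 (chromosome 11, 94827050 to 94843868, GRCm39) stood at 332, 535 and 396 CPM at 1 day and at 1762, 3272 and 3256 CPM at 3 days. All 3 bladders at 3 days lay above all 3 at 1 day, and the fold was 6.31 (log2 2.66, SE 0.36, adjusted p = 0.000627). Col1a2 (chromosome 6, 4505618 to 4541543) went from 428, 672 and 454 CPM to 2098, 3197 and 3409 CPM, 5.39-fold higher (adjusted p = 0.000358). Replicate 1 at 3 days was the lowest of its group for both genes and lay far above each bladder at 1 day. Col3a1, the type III collagen of young and compliant matrix, stood at 648, 1156 and 858 CPM and then at 3117, 4606 and 4584 CPM (4.45-fold, adjusted p = 0.00119).

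The windows before Col1a2 and Col3a1 are shown because these genes rose together, with any match to CCAAT in capitals. They hold the 250 bases before the RefSeq start on GRCm38.p6, which is not the build of the deposited files, and are written along the gene's strand. The Col1a2 window lies at chr6:4505368-4505617 and the Col3a1 window at chr1:45311288-45311537, both on the plus strand.
Col1a2: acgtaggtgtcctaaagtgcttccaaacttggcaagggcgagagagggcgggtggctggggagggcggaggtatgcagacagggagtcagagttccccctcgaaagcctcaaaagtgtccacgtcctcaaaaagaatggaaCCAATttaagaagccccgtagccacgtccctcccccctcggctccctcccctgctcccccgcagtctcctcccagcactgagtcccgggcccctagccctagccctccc
Col3a1: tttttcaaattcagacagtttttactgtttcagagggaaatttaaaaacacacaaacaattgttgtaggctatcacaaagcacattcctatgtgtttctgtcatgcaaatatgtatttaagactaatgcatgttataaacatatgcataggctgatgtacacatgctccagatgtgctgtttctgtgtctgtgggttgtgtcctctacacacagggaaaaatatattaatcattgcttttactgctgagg
Searched on both strands, CCAAT has 1 match in the Col1a2 window, 109 bases before the start, and these letters are not in the Col3a1 window. Of 27 collagens with a window 10 (37%) hold a match, beside 4895 of 13945 tested genes with a window (35.1%).

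Among the other called members the fold ran from 1.68 to 10.7. Col11a1 sets fibre diameter, and it went from 2.77, 4.08 and 2.13 CPM to 21.5, 37.2 and 41.8 CPM (10.7-fold, log2 3.43, SE 0.54, adjusted p = 0.00245). Col14a1, which decorates the fibre surface, went from 10.8, 17.6 and 18.3 CPM to 121, 200 and 155 CPM (9.78-fold, log2 3.29, SE 0.40, adjusted p = 0.000315). The groups do not overlap for either gene, and the saline bladders stood on different sides: 5.67 to 10.5 CPM for Col11a1, below all bladders at 3 days, and 266 to 290 CPM for Col14a1, above them all. Col5a1 and Col5a2, which start fibre assembly, were 4.30-fold and 3.26-fold higher, and Col8a1, a short-chain collagen of vessels and wounds, was 3.00-fold higher. Col23a1, a membrane collagen that shares its locus with Phykpl, was 9.90-fold higher at a low level (0.556 ± 0.220 to 5.77 ± 2.90 CPM). The type VI genes Col6a1, Col6a2 and Col6a3 were 2.44-fold, 2.83-fold and 3.03-fold higher. Col15a1 of basement membrane zones was 3.14-fold higher, Col16a1 2.27-fold and Col27a1 1.68-fold. The basement membrane genes Col4a1 (log2 0.63, adjusted p = 0.309) and Col4a2 (log2 0.45, adjusted p = 0.532) did not pass the test, nor did Col17a1 of the hemidesmosome (log2 -0.49, adjusted p = 0.645).

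Against saline, 9 collagens were higher and 1 lower at 3 days (median log2 0.62), and at 1 day 1 was higher and 10 were lower (median log2 -0.94). Over all genes 6.74% were higher and 3.30% lower than saline at 3 days, and 7.26% higher and 4.49% lower at 1 day. These comparisons share libraries with that between the days. Col1a1 was lower than saline at 1 day (log2 -1.61, adjusted p = 0.00505) and stood at log2 1.05 over saline at 3 days (adjusted p = 0.0585). Col5a1 was higher than saline at 3 days by log2 1.05 (adjusted p = 0.00958).

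Genes that crosslink the matrix or form elastic fibres rose beside the collagens, with 8 of 33 members higher, 0 lower and a median log2 of 0.80. Leaving out 1 library gave 7 to 9. Lox, lysyl oxidase, begins the covalent crosslinks of collagen and elastin, and it had the lowest adjusted p of the higher genes named here. It stood at 7.17, 8.96 and 8.88 CPM at 1 day and at 60.9, 47.2 and 63.6 CPM at 3 days (6.61-fold, log2 2.72, SE 0.23, adjusted p = 8.88e-06). The saline bladders at 14.5 to 19.9 CPM lay between the groups without overlap. Loxl2, a related oxidase that acts on basement membranes, went from 27, 38 and 42.4 CPM to 145, 121 and 174 CPM (3.94-fold, log2 1.98, SE 0.19, adjusted p = 2.81e-05). Its saline level of 30.3 to 40.1 CPM overlapped the level at 1 day. Fbn1, the fibrillin of microfibrils, was 4.68-fold higher, the microfibril protein gene Mfap2 4.21-fold and elastin, Eln, 3.01-fold. Fbln2 and Fbln5, fibulins of elastic fibres, rose by log2 1.73 and 1.61, and Sparc, a collagen-binding protein, by log2 1.22.

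Wound genes that are often named with these did not pass the test. Postn, periostin, stood at 237, 412 and 370 CPM at 1 day and 257, 340 and 305 CPM at 3 days (log2 -0.23, adjusted p = 0.827). Tnc, tenascin C, stood at 161, 167 and 209 CPM and then at 154, 233 and 258 CPM (log2 0.21, adjusted p = 0.857). Both pairs of groups overlapped.

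Among matrix proteases and their inhibitors 7 of 33 rose and 0 fell (median log2 0.45). The procollagen N-proteinases Adamts2 and Adamts14, which trim new collagen, were 4.59-fold and 4.57-fold higher. Adamts2 went from 15.6, 18 and 17.7 CPM to 72.4, 85.1 and 87.6 CPM (adjusted p = 0.000312), a separation far wider than either group. Mmp14, the membrane collagenase, and Mmp2, the gelatinase it activates, rose by log2 0.84 and 1.25. Adam12, Adamts5 and Serpine2, an inhibitor of thrombin and plasminogen activators, rose by log2 2.57, 1.81 and 1.46. Without replicate 1 or replicate 3 at 1 day 4 members were higher, and Adamts14 then had adjusted p-values of 0.106 and 0.0996 (0.102 without replicate 2 at 3 days). Adamts5 lost its call without replicate 1 or 3 at 1 day or replicate 3 at 3 days (adjusted p up to 0.0745).

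Fibroblast markers followed the matrix, with 9 of 25 higher, 1 lower and a median log2 of 1.08. Without replicate 1 at 1 day 5 were higher. Lum, lumican, a proteoglycan that spaces collagen fibres, went from 49.2, 68.5 and 57.7 CPM to 235, 236 and 223 CPM (3.81-fold, log2 1.93, SE 0.32, adjusted p = 0.00329). The 3 bladders at 3 days stood within the range of the saline ones (200 to 308 CPM). Cxcl12, a chemokine of resident fibroblasts, was 3.69-fold higher, and Thbs2, a matricellular protein, 3.20-fold. Scara5, a ferritin receptor of adventitial fibroblasts, was 6.65-fold higher and lost the call without replicate 1 at 1 day (adjusted p = 0.0737). Smoc2, Mfap5, Penk and Fbln1 also rose, by log2 1.46 to 1.71. Igfbp3, a carrier of insulin-like growth factors, was the member that fell, from 93.8, 94.5 and 166 CPM to 72.1, 50.8 and 60.1 CPM (log2 -1.01, adjusted p = 0.0235). It rests on replicate 3 at 1 day, without which its log2 change was -0.67 (adjusted p = 0.181). It also missed the threshold without replicate 2 (adjusted p = 0.154) or replicate 3 (adjusted p = 0.0948) at 3 days.

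The fibroblast list stood apart from the collagens in its level against saline. Its sum was 2785 to 3571 CPM at 1 day, 4564 to 5431 CPM at 3 days and 7630 to 7990 CPM after saline, so that no bladder at 3 days reached the saline range, whereas all 3 were above it for the collagens. Abundant genes weigh most in such sums. Col1a1, Col1a2 and Col3a1 had means of 2763, 2901 and 4102 CPM at 3 days and 1281, 1596 and 1702 CPM after saline. Of these, Col3a1 passed against saline (adjusted p = 0.0168), and Col1a1 (0.0585) and Col1a2 (0.0936) did not. Of the 25 fibroblast markers 16 were lower than saline at 1 day and 2 higher. At 3 days 5 were lower and 3 higher, and Fbln1 was among the lower ones (229 ± 69.1 against 471 ± 9.81 CPM, adjusted p = 0.0456). Fndc1, Lama2, Svep1, Spon2 and Olfml1, matrix or secreted protein genes outside the lists, were 4.75-fold to 8.40-fold higher at 3 than at 1 day. Of these, Lama2, the laminin chain of muscle and nerve basement membranes, went from 9.61, 10.7 and 9.90 CPM to 41.6, 62.1 and 50.9 CPM (adjusted p = 0.00191). Olfml1 lost its call without replicate 1 or 3 at 1 day or replicate 2 at 3 days (adjusted p up to 0.092). Lrrc17 and Pimreg, also outside the lists, were 6.84-fold and 5.93-fold higher (adjusted p = 0.0366 and 0.00635). Lrrc17 lost its call without any library but replicate 2 at 1 day (adjusted p up to 0.216), and without the filter on low counts. Pimreg lost it without replicate 1 or 3 at 1 day (adjusted p up to 0.0635).

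**Figure D2:**
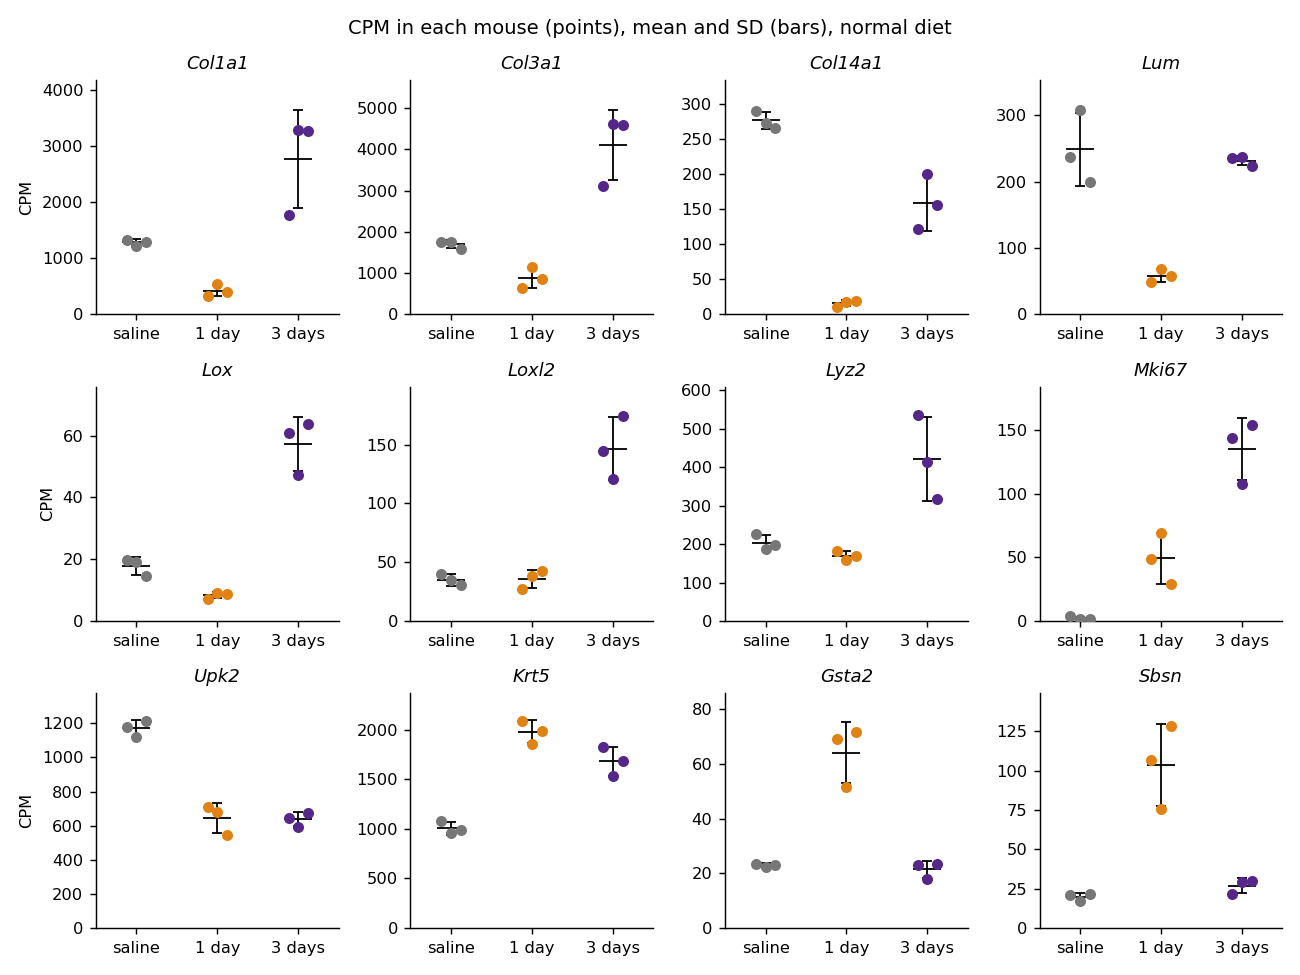
CPM of 12 genes on the y axis of each panel, for the saline, 1 day and 3 days groups on the normal diet. Points are mice, the long mark is the mean and the bars are the SD (n = 3). Col1a1, Col3a1, Col14a1, Lum, Lox, Loxl2, Lyz2 and Mki67 have every 3 days point above every 1 day point. Krt5, Gsta2 and Sbsn have the reverse, and Upk2 overlaps.

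Smooth muscle genes did not pass the test in either direction. Of 25 contractile genes 2 were above 0 and the median log2 was -0.26. Acta2, smooth muscle actin, stood at 2265, 4136 and 3502 CPM at 1 day and at 2178, 3833 and 3246 CPM at 3 days (log2 -0.15, adjusted p = 0.925). Myh11, the smooth muscle myosin, stood at 2723, 3500 and 4095 CPM and then at 1712, 4572 and 3148 CPM (log2 -0.19, adjusted p = 0.899). The lowest bladder was replicate 1 in both groups for Acta2 and for Myh11, and groups overlapped. The sum of the list was 24410 to 38920 CPM at 1 day, 19920 to 36710 CPM at 3 days and 48730 to 59450 CPM after saline.

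Genes of mitosis were higher at 3 days in all 55 members by sign, with a median log2 of 1.22, and 8 of the 55 passed the test. The summed level stood at 729, 1228 and 475 CPM at 1 day, at 2047, 1640 and 2057 CPM at 3 days and at 173 to 176 CPM after saline. The 3 groups do not overlap, and the bladders at 1 day spread over more than the width of the other groups together. The number of members that passed depended on single libraries. It was 1 without replicate 1 at 1 day, replicate 3 at 1 day or replicate 3 at 3 days, 2 without replicate 1 at 3 days, 4 without replicate 2 at 3 days and 24 without replicate 2 at 1 day, the highest bladder of that day.

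Anln, anillin, builds the contractile ring that separates daughter cells, and it kept its call in every such fit. It stood at 14.9, 20.7 and 9.58 CPM at 1 day and at 51.7, 54.4 and 55.7 CPM at 3 days (3.46-fold, log2 1.79, SE 0.30, adjusted p = 0.00393). Cenpf, a kinetochore protein, went from 10.4, 20.8 and 6.38 CPM to 46.1, 39.0 and 52.7 CPM (3.53-fold, adjusted p = 0.0184), and Cenpa, the centromere histone, from 6.55, 18.4 and 4.38 CPM to 42.3, 31.1 and 41.1 CPM (3.77-fold, adjusted p = 0.0218). Replicate 2 was the highest of the bladders at 1 day for all 3 genes and stayed below the lowest at 3 days. Without replicate 1 at 1 day the adjusted p was 0.125 for Cenpf and 0.156 for Cenpa, and without replicate 3 at 1 day 0.105 and 0.118. Without replicate 3 at 3 days it was 0.0753 and 0.076, and Cenpa missed the threshold also without replicate 1 at 3 days (0.0665). With only the 6 libraries in the fit Cenpa missed it too (adjusted p = 0.0697), while Cenpf passed (adjusted p = 0.0295). Both lost their calls without the filter on low counts. The other called members were Kif20a, Prc1, Nusap1, Tpx2 and Smc4, motor, bundling and condensin proteins of the spindle and chromosomes, at log2 0.56 to 1.65. Kif20a lost its call without any library but replicate 2 at 1 day (adjusted p up to 0.2), and without the filter on low counts. Mki67, the Ki-67 proliferation antigen, stood at 49.0, 69.5 and 29.5 CPM at 1 day, 144, 108 and 154 CPM at 3 days and 1.82 to 3.71 CPM after saline. The groups do not overlap, and the change did not pass the test (log2 1.40, SE 0.46, adjusted p = 0.179). Its adjusted p was 0.029 with only the 6 libraries in the fit and 0.166 with DESeq2.

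Of the 8 called mitosis genes 5 have a window, and those of the 3 that hold CCAAT are shown, chosen for that match. They are again the 250 bases before the RefSeq start on GRCm38.p6, written along the gene's strand, with CCAAT, or ATTGG where it lies on the other strand, in capitals. Cenpa lies at chr5:30666636-30666885 (plus strand), Cenpf at chr1:189688087-189688336 (minus strand) and Prc1 at chr7:80294201-80294450 (plus strand).
Cenpa: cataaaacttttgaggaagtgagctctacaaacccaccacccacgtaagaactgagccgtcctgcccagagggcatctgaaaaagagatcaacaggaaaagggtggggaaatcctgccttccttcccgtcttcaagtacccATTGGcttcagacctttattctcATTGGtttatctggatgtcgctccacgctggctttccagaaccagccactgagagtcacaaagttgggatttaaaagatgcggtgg
Cenpf: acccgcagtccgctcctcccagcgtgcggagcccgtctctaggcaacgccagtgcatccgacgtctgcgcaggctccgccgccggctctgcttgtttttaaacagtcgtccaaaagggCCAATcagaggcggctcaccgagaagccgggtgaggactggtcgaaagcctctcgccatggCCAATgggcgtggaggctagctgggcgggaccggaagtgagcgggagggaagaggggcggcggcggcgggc
Prc1: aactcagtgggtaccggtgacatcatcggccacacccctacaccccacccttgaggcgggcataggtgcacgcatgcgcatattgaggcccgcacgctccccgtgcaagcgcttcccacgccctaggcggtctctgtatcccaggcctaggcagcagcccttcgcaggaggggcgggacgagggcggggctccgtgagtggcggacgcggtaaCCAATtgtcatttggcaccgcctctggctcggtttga
Cenpa and Cenpf hold 2 matches each and Prc1 holds 1. Among the 5 called genes with a window CCAAT is in 3 and TTTGAA, the core of a cell cycle element searched likewise on both strands, in 0. Over the whole mitosis list, 31 of 44 members with a window (70.5%) hold CCAAT, beside 35.1% of all tested genes with one. TTTGAA is in 14 of the 44 (31.8%), beside 11.5% of all. Among the 168 genes with a window that rose, 65 (38.7%) hold CCAAT and 24 (14.3%) hold TTTGAA. A match is a description of these letters and was not tested as a site.

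DNA replication genes did not move with mitosis. Of 44 members 0 passed the test in either direction, 14 were above 0 and the median log2 was -0.13. Their summed level was 1375, 1673 and 1179 CPM at 1 day and 1510, 1093 and 1276 CPM at 3 days, with 439 to 467 CPM after saline. The 2 days overlapped, and both lay above saline, where 43 of the 44 members were lower than at 1 day and 40 lower than at 3 days. Mcm2, of the replicative helicase, stood at 54.8, 70.9 and 53.4 CPM and then at 59.4, 31.2 and 47.9 CPM (adjusted p = 0.681). Pcna, the sliding clamp, overlapped likewise (log2 -0.23, adjusted p = 0.679).

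None of 34 p53 target genes passed between 1 and 3 days, 23 were above 0 and the median log2 was 0.20. The list summed to 2897 to 3222 CPM at 1 day, 3393 to 3835 CPM at 3 days and 2109 to 2203 CPM after saline, without overlap. Leaving out 1 library gave 0 higher members, and the other settings gave 0 to 5. Cdkn1a, the cell cycle inhibitor p21, stood at 186, 237 and 198 CPM at 1 day and 300, 278 and 229 CPM at 3 days (log2 0.32, adjusted p = 0.268), against 48.8 to 53.6 CPM after saline. The groups overlap by 1 bladder on each side. In the list of crosslink repair and homologous recombination, 0 of 37 rose and 1 fell. That gene, Ercc1 (chromosome 7, 19075769 to 19090449), encodes the partner of the nuclease that cuts at crosslinks and bulky adducts, and it stood at 65.2, 58.9 and 81.4 CPM at 1 day, 32.3, 28.8 and 32.9 CPM at 3 days and 15.5 to 19.1 CPM after saline. The 3 groups do not overlap, and the fall was 2.27-fold (log2 -1.18, SE 0.17, adjusted p = 0.000901). It overlaps Cd3eap and D830036C21Rik on the other strand, and since the strandedness of the counting is not given in the sources used here, reads of these genes cannot be told apart.

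**Figure D3:**
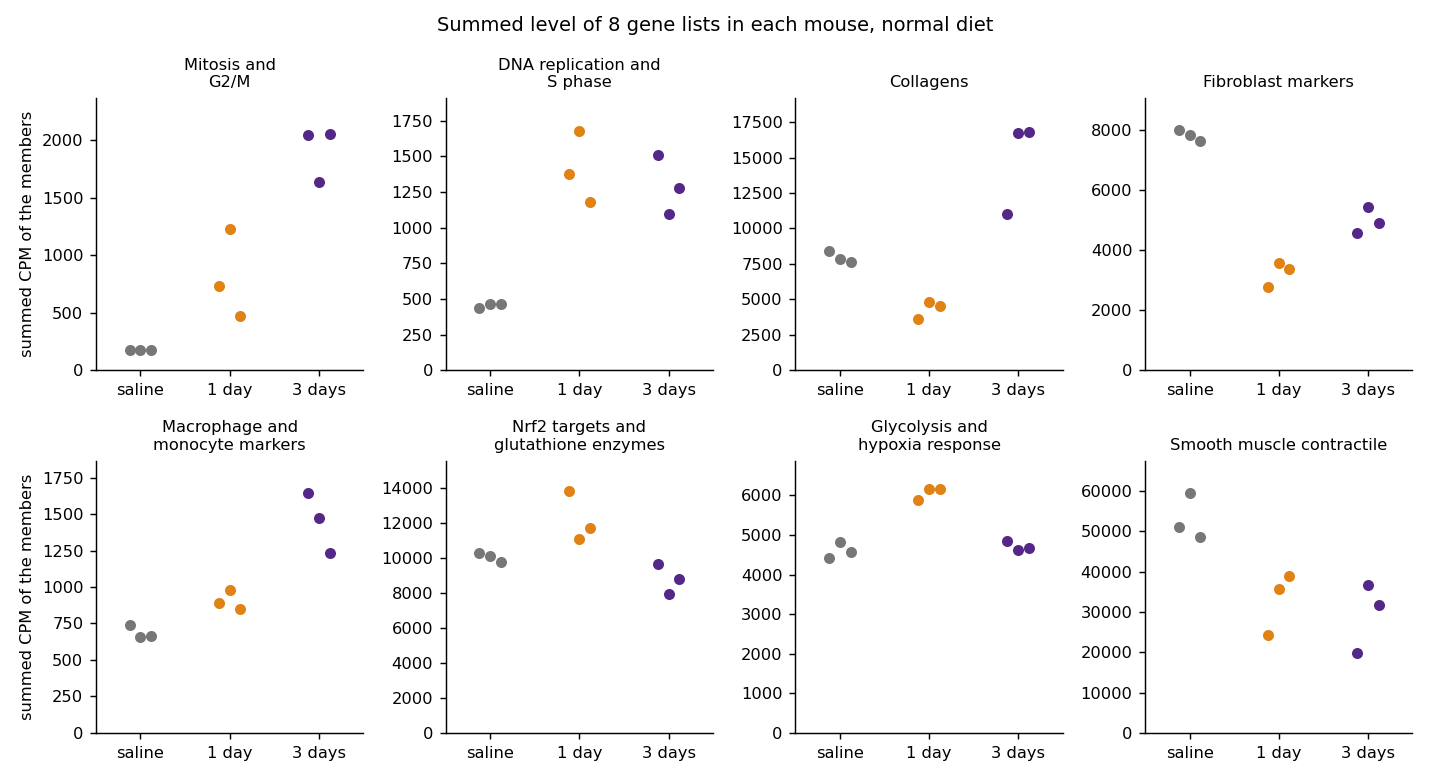
Summed CPM of the members of 8 gene lists on the y axis, for the saline, 1 day and 3 days groups on the normal diet, with 1 point for each mouse. Mitosis rises from saline to 1 day to 3 days without overlap, while DNA replication overlaps between the days. Collagens pass above the saline level and fibroblast markers stay below it.

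Some signalling genes were higher at 3 days, and which cells expressed them was not measured in these whole bladders. In the hedgehog, Wnt and BMP list 5 of 37 rose and 0 fell (median log2 0.58). Gli1, the target gene and effector of hedgehog signalling, stood at 19.5 ± 1.52 CPM at 1 day and 41.8 ± 8.36 CPM at 3 days (2.06-fold, adjusted p = 0.0193). Bmp4, a stromal signal that promotes urothelial differentiation, went from 11.5, 17.9 and 15.9 CPM to 37.9, 47.9 and 43.7 CPM (2.75-fold, log2 1.46, SE 0.21, adjusted p = 0.000901). At 3 days it stood level with saline (39.1 to 44.3 CPM), with overlapping groups. Sfrp1, a secreted Wnt antagonist, was 3.60-fold higher (adjusted p = 0.00059), Wnt2, a stromal Wnt ligand, 2.46-fold (adjusted p = 0.0396) and Dkk2, a Wnt modulator, 2.07-fold (adjusted p = 0.0121). Shh, the epithelial ligand, stood at 236, 170 and 174 CPM and then at 207, 171 and 199 CPM (log2 -0.06, adjusted p = 0.945), with overlapping groups. Bmp4 and Sfrp1 kept their calls in every fit without 1 library. Wnt2 lost its call without any library but replicate 2 at 1 day (adjusted p = 0.0671 to 0.221) and without the filter on low counts (adjusted p = 0.121). Dkk2 lost it without replicate 1 at 1 day (adjusted p = 0.0967) or replicate 3 at 3 days (adjusted p = 0.0755). The number of called members was 2 without replicate 1 at 1 day or replicate 3 at 3 days, and 3 without replicate 3 at 1 day or replicate 2 at 3 days.

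Among growth factors of the lining Igf1, made by stroma and macrophages, was the member of 22 that rose. It went from 25.9, 30.9 and 31.8 CPM to 104, 58.2 and 83.0 CPM (2.67-fold, adjusted p = 0.0302), and its groups do not overlap. Its call was lost without any of 5 of the libraries, the exception being replicate 2 at 3 days, with adjusted p-values of 0.0782 to 0.171. Hbegf, an EGF receptor ligand, stood at 12.9, 7.55 and 11.9 CPM and then at 21.6, 8.90 and 10.8 CPM (log2 0.30, adjusted p = 0.83).

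Blood vessel genes gave 3 of 27 higher and 0 lower (median log2 0.50). Tie1 and Tek, receptors of the angiopoietin system, were 1.99-fold and 1.89-fold higher, and Aplnr, the apelin receptor of growing vessels, 2.90-fold. Aplnr stood at 14.9, 11.3 and 9.29 CPM at 1 day and 38.4, 40.9 and 27.3 CPM at 3 days (adjusted p = 0.0176), without overlap. Pecam1, found throughout the endothelium, stood at 58.2, 61.0 and 90.3 CPM and then at 120, 129 and 98.2 CPM, without overlap, and did not pass the test (log2 0.67, adjusted p = 0.0796). Without replicate 1 or replicate 2 at 3 days 0 endothelial genes were called, and without replicate 1 at 1 day 1 was. Over the fits without 1 library the adjusted p reached 0.116 for Aplnr, 0.122 for Tie1 and 0.149 for Tek. Pecam1 passed without replicate 3 at 1 day (adjusted p = 0.0311) and with DESeq2 (adjusted p = 0.0242).

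Of 29 macrophage and monocyte markers 1 rose and 0 fell, with a median log2 of 0.45 and a summed level of 850 to 982 CPM at 1 day and 1234 to 1647 CPM at 3 days. The called member, Lyz2, lysozyme of myeloid cells, went from 183, 158 and 170 CPM to 536, 414 and 318 CPM (2.39-fold, log2 1.26, SE 0.23, adjusted p = 0.00635) without overlap, in every fit without 1 library. Adgre1, the F4/80 antigen, stood at 10.8, 11 and 9.33 CPM and then at 21.1, 21.8 and 16.8 CPM, without overlap, and did not pass the test (log2 0.88, adjusted p = 0.167). Its adjusted p was 0.0181 with only the 6 libraries in the fit and 0.0666 with DESeq2. Against saline 17 macrophage markers were higher at 3 days and 7 at 1 day.

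Neutrophil markers were near the floor, since Ly6g, Camp and Elane were at 0 in all 6 libraries. The list summed to 20.1 to 42.9 CPM at 1 day and 21.8 to 38.6 CPM at 3 days, and 0 of 15 passed. S100a8, a calprotectin subunit, stood at 0.287, 0.161 and 1.39 CPM and then at 0.764, 0 and 0.207 CPM (adjusted p = 0.858). T, B and natural killer cell markers had a median log2 of -1.02 with 0 of 27 called, and Cd3e of the T cell receptor complex was at or under 0.778 CPM in each of the 6 libraries. Such levels set a limit on what could be detected at this depth.

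Of 26 inflammatory cytokines and chemokines 1 rose, Vcam1, the endothelial ligand that holds leukocytes, from 16.2, 24.2 and 18.7 CPM to 36.5, 65.4 and 55.6 CPM (2.56-fold, adjusted p = 0.00785). Its call was lost without replicate 1 or 3 at 1 day or replicate 2 at 3 days, at adjusted p-values of 0.0752, 0.0543 and 0.0609. The early signals differed in sign. Il6 stood at 0, 0.242 and 0.368 CPM and then at 1.94, 0.951 and 0.655 CPM (adjusted p = 0.25), while Cxcl1, a neutrophil attractant, stood at 1.05, 1.82 and 2.41 CPM and then at 1.09, 0.675 and 0.621 CPM (log2 -1.20, adjusted p = 0.312). None of the interferon genes (35 tested), MHC class II and dendritic cell genes (18 tested) or mast cell and eosinophil genes (15 tested) passed. Cd55, which guards cells from complement, was the called member of 20 complement genes (log2 0.67, adjusted p = 0.0212). It overlaps Cd55os, and its call was lost without replicate 1 or 3 at 1 day or replicate 2 or 3 at 3 days (adjusted p = 0.0988 to 0.147).

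The urothelial lists showed few calls between the days. Of 27 umbrella cell and differentiation genes 1 rose (median log2 -0.03), of 22 basal and intermediate genes 0 (median log2 -0.00), and of 22 tight junction genes 0 (median log2 -0.07). Upk2, a uroplakin of the umbrella cell plaque, stood at 709, 678 and 547 CPM at 1 day, 647, 592 and 672 CPM at 3 days and 1120 to 1214 CPM after saline. The 2 days overlapped and both lay below saline (log2 -0.07, adjusted p = 0.942 between the days, and log2 -0.93, adjusted p = 0.00318 for 3 days against saline). Krt20, keratin of the most differentiated umbrella cells, did the same, at 78.6 to 98.0 CPM, 94.0 to 109 CPM and 158 to 164 CPM in that order. Upk3a overlapped between the days at 791 to 1326 CPM and 1051 to 1186 CPM (adjusted p = 0.986). The called member, Prom1, an apical membrane protein, was 2.66-fold higher (adjusted p = 0.0056), and missed the threshold without replicate 1 at 1 day (adjusted p = 0.0548).

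In the basal layer Krt5 stood at 2088, 1859 and 1990 CPM at 1 day, 1828, 1529 and 1682 CPM at 3 days and 954 to 1078 CPM after saline. The groups do not overlap, and the change between the days did not pass (log2 -0.29, adjusted p = 0.631). Krt14, of the most stem-like basal cells, stood at 24.1, 50.1 and 38.4 CPM and then at 95.1, 28.4 and 42.8 CPM (log2 0.51, adjusted p = 0.845), with 0.813 to 2.62 CPM after saline. Its spread at 3 days came from replicate 1. Trp63, the basal transcription factor, ranged from 179 to 249 CPM over the 6 libraries and was 207 to 212 CPM after saline. Klf4, an epithelial transcription factor listed among immediate early genes, rose from 31.9, 32.7 and 25.1 CPM to 60.9, 59.6 and 73.7 CPM (2.08-fold, adjusted p = 0.00553). It was the called member of 26 in that list and had an adjusted p of 0.0506 without replicate 3 at 1 day.

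Among 26 squamous keratinisation genes 0 rose and 1 fell. Sbsn, suprabasin of keratinising epithelia, stood at 107, 75.8 and 128 CPM at 1 day, 21.5, 29.1 and 30 CPM at 3 days and 16.8 to 21.4 CPM after saline. It fell 4.02-fold (log2 -2.01, SE 0.23, adjusted p = 0.000222), in every fit without 1 library. Without replicate 2 at 1 day 2 members of the list fell. Sbsn overlaps Gapdhs on the other strand. Dmkn, dermokine, lies beside it on chromosome 7 (30463181 to 30480491), and fell 3.62-fold (29.3, 25.3 and 40.6 CPM to 7.53, 11.1 and 8.73 CPM, adjusted p = 0.00381). Krt13, a keratin of stratified mucosa, stood at 5.35, 4.36 and 10.5 CPM and then at 6.09, 4.26 and 3.00 CPM (adjusted p = 0.677).

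Antimicrobial genes of the mucosa gave 1 called in each direction of 16, Lyz2 and Ang. Ang, a ribonuclease of innate defence that shares its locus with Rnase4, fell from 35.2, 25.1 and 27.3 CPM to 17.7, 14.6 and 14.5 CPM (1.95-fold, adjusted p = 0.0302). It missed the threshold without replicate 1 or 3 at 1 day or replicate 2 or 3 at 3 days (adjusted p up to 0.203). Reg3g, a lectin that kills bacteria, stood at 71.4, 42.1 and 57.3 CPM at 1 day, 19.8, 13.4 and 26.2 CPM at 3 days and 0.274 to 1.15 CPM after saline. The 3 groups do not overlap, and the change between the days had an adjusted p of 0.0612 (log2 -1.58). That value was 0.00844 with only the 6 libraries in the fit and 0.0692 with DESeq2. Neither Cyp26b1, which degrades retinoic acid (adjusted p = 0.76), nor any other of 29 tested retinoid genes passed.

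Glutathione and Nrf2 target genes were the metabolic group with most falls, 4 of 30 against 1 that rose, and a median log2 of -0.46. Nrf2 is the transcription factor that answers to electrophiles such as acrolein, and glutathione S-transferases join them to glutathione. Gsta1 stood at 14.4, 5.12 and 18.5 CPM at 1 day, 1.23, 1.14 and 2.48 CPM at 3 days and 0.884 to 2.15 CPM after saline. It fell 8.16-fold (log2 -3.03, SE 0.47, adjusted p = 0.00222), and the bladders at 3 days overlapped the saline ones. Gsta2 stood at 69.3, 51.5 and 71.7 CPM, 23, 18 and 23.6 CPM and 22.2 to 23.5 CPM in the same order, and fell 3.10-fold (log2 -1.63, SE 0.19, adjusted p = 0.000222). The bladders at 1 day were high for both genes, without overlap. Reads of Gsta1, Gsta2 and their close copy Gm3776 (log2 -2.95, adjusted p = 0.0195) could have been split among them.

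The windows before both transferase genes are shown because they share a run of 29 identical bases, set in capitals. They are the 250 bases before the RefSeq start on GRCm38.p6, along the gene's strand, at chr9:78230419-78230668 (plus strand) for Gsta1 and chr9:78347146-78347395 (minus strand) for Gsta2.
Gsta1: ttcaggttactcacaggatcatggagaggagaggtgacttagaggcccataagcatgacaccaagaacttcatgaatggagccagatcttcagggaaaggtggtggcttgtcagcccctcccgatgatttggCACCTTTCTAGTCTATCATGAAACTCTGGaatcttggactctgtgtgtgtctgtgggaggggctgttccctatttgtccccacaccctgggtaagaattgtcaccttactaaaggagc
Gsta2: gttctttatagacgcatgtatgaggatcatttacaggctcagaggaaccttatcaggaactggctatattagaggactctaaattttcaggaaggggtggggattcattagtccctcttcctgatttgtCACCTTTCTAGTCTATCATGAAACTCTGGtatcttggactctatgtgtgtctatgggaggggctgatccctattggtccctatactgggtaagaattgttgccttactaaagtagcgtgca
The run starts 118 bases before the Gsta1 start and 121 before the Gsta2 start.

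Akr1b8, an aldo-keto reductase of reactive aldehydes, fell 2.68-fold from 838, 566 and 871 CPM to 402, 219 and 261 CPM (adjusted p = 0.0121), and was still above saline (101 to 111 CPM) in each bladder. Gstp1 fell 1.92-fold to the saline level (125 ± 18.5 against 135 ± 12.8 CPM, adjusted p = 0.0237 between the days). Gpx3, a secreted glutathione peroxidase, was the member that rose (log2 0.97, adjusted p = 0.031). Hmox1, haem oxygenase, stood at 111, 123 and 177 CPM and then at 102, 71.3 and 55.6 CPM (adjusted p = 0.0916), and Nqo1 overlapped between the days (adjusted p = 0.44). DESeq2 called Hmox1 (adjusted p = 0.0234). Only 2 of the 4 falls, Gsta1 and Gsta2, held without replicate 1 at 1 day, replicate 3 at 1 day, replicate 2 at 3 days or replicate 3 at 3 days. In these fits Akr1b8 had adjusted p-values of 0.068 to 0.0917 and Gstp1 of 0.0792 to 0.165, Gpx3 had 0.102 to 0.202, and 7 members fell without replicate 2 at 1 day.

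Some lists leaned one way with few calls or none. All 38 nuclear genes of oxidative phosphorylation, all 25 of ribosome assembly and all 16 heat shock genes had a log2 change below 0, with medians of -0.25, -0.25 and -0.41, and 0 of them passed. The summed heat shock level was 5701 to 5886 CPM at 1 day, 4359 to 4912 CPM at 3 days and 3919 to 4386 CPM after saline. In glycolysis and the hypoxia response Eno1, enolase, was the called member of 28 (log2 -0.51, adjusted p = 0.0485), and its call was lost in each of the 6 fits without 1 library (adjusted p = 0.0817 to 0.192). The list summed to 5894 to 6165 CPM at 1 day and 4618 to 4855 CPM at 3 days, which is near saline (4419 to 4831 CPM). Shmt2 of mitochondrial one-carbon metabolism, which overlaps Ndufa4l2, was the called member of 32 in the unfolded protein and integrated stress response (log2 -0.57, adjusted p = 0.0414), and was lost without any library but replicate 1 at 3 days (adjusted p = 0.0726 to 0.206).

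Further genes that fell came from no list. Sgk2, a kinase of epithelial ion transport, fell 4.38-fold (adjusted p = 0.031) and Tnfrsf18, a costimulatory receptor, 3.25-fold (adjusted p = 0.0218). Slc2a12, a glucose transporter, fell from 39.6, 35.9 and 40.4 CPM to 16.6, 20.2 and 22.6 CPM (2.03-fold, adjusted p = 0.00743), in every fit without 1 library, and it overlaps Tbpl1 on the other strand. Acsl3, of fatty acid activation, fell 1.91-fold (adjusted p = 0.0166). Tdrkh fell 2.35-fold (adjusted p = 0.0387). Its call was lost in each of the 6 fits without 1 library (adjusted p = 0.0528 to 0.177) and with only the 6 libraries (adjusted p = 0.0554). Leaving out 1 library raised the adjusted p of Sgk2 as far as 0.209 (without replicate 3 at 1 day), that of Tnfrsf18 as far as 0.121 (without replicate 2 at 3 days) and that of Acsl3 as far as 0.133 (without replicate 1 at 1 day).

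Red cell genes showed the widest fold of all lists, with 4 of 8 lower and a median log2 of -2.87. The sum of the 4 globin genes Hba-a1, Hba-a2, Hbb-bs and Hbb-bt was 23.1, 37.6 and 38.6 CPM at 1 day, 0.323, 0.614 and 0.862 CPM at 3 days and 141, 113 and 73.4 CPM after saline. The 3 groups do not overlap, and the sum fell 57.4-fold from 1 to 3 days. Hbb-bs fell 242-fold, from 1423 counts over the group to 8 (adjusted p = 4.02e-05). Hba-a2 and Hbb-bt had 0 counts at 3 days, so that they were at least 72.7-fold and 51.3-fold lower when the group is given a floor of 3 counts in all. The paired copies are near-identical, and how reads were split between them is uncertain. All 4 kept their calls in every fit without 1 library. With at least 10 counts required in each of the 6 libraries Hba-a1 was the globin gene left in the test. Blood in the vessels when the bladder was taken was not recorded, and its part in the globin level was not tested.

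**Figure D4:**
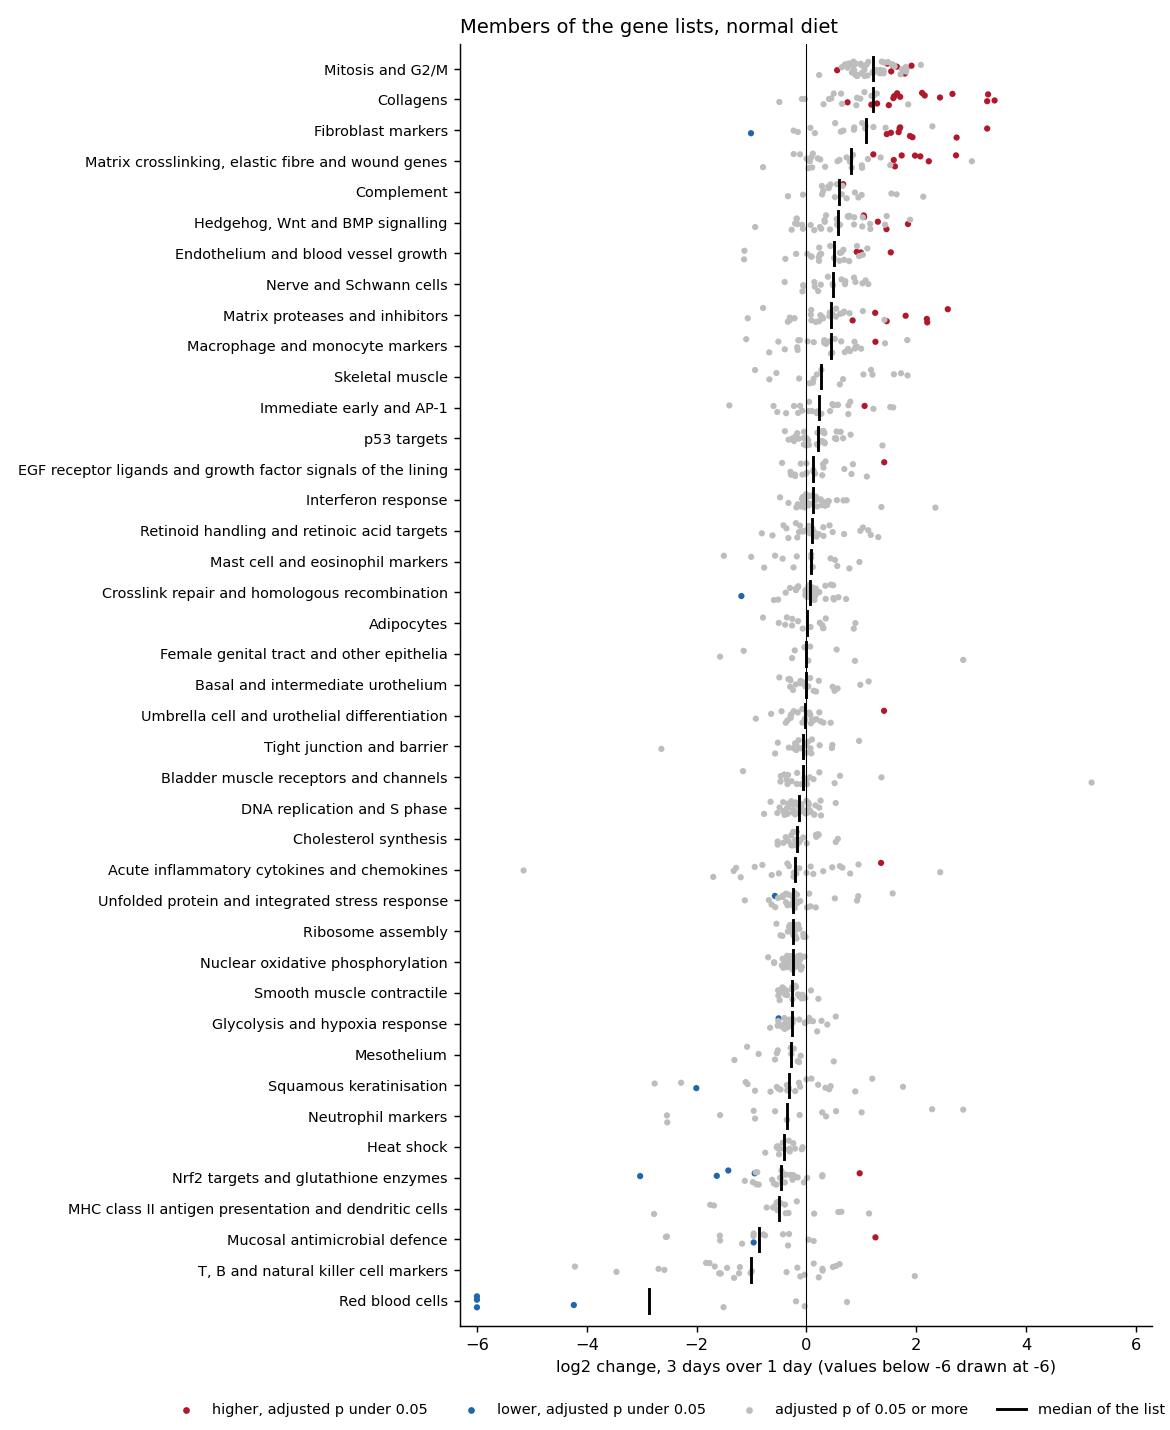
Log2 change from 1 to 3 days (x axis) of the tested members of 41 gene lists (rows, sorted by median). Points are genes, red where higher and blue where lower at an adjusted p under 0.05 and grey otherwise, and the black mark is the median of the list. Mitosis and collagens have medians of 1.22 and 1.21 at the top and red cells -2.87 at the bottom, and the 3 globin points drawn at -6 lie beyond it.

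Marker lists of cells that could enter a bladder sample by dissection gave no call. This held for nerve and Schwann cells (19 tested, median log2 0.48), adipocytes (16, 0.00), skeletal muscle (17, 0.27), mesothelium (13, -0.29) and genital tract (10, -0.00). The ranges of their summed levels overlapped between the days except for nerve and Schwann cells, at 535 to 557 CPM and 568 to 679 CPM. The part of this shift in the rise of stromal genes was not tested. Cholesterol synthesis (24 tested) and bladder muscle receptors and channels (22 tested) also gave no call.

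The same contrast on the vitamin A diet uses none of these 6 libraries. There 819 genes (4.24%) passed, 492 higher (2.55%) and 327 lower (1.69%). Of the 236 genes that rose on the normal diet 226 had the same sign on vitamin A and 129 passed there in the same direction, with medians of 1.44 and 1.11. Of the 42 that fell 38 had the same sign and 17 passed, with medians of -0.95 and -0.67. None passed in the opposite direction. Over all tested genes 59.9% had the same sign on both diets.

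**Figure D5:**
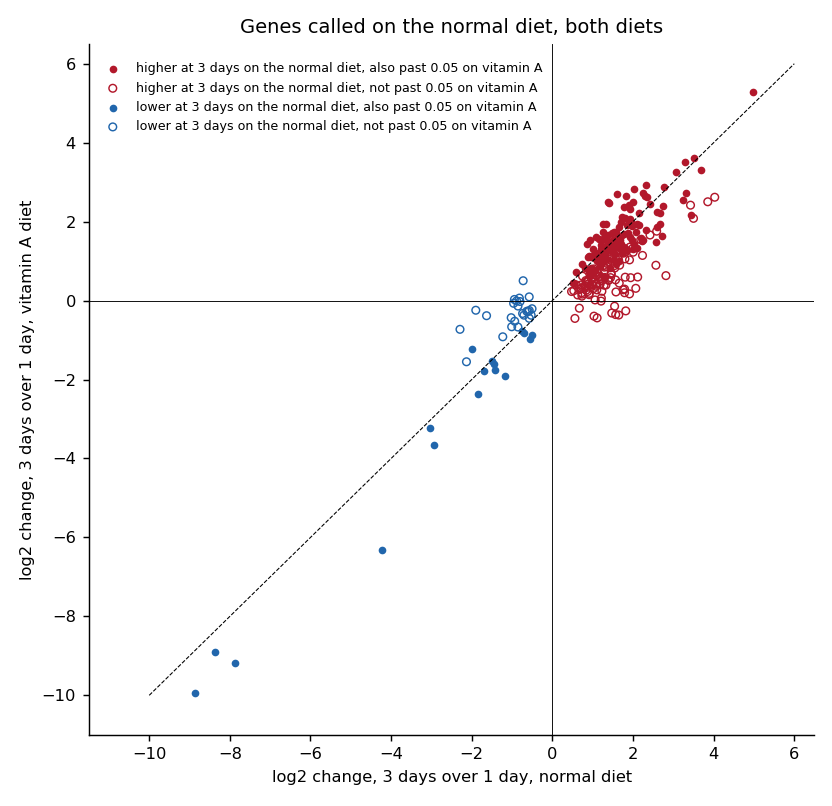
Log2 change from 1 to 3 days on the normal diet (x axis) and on the vitamin A diet (y axis) for the 278 genes called on the normal diet. Filled points passed on vitamin A too, open points did not, and the dashed line marks equal change. Of the red points 226 of 236 lie above 0 on the y axis, and of the blue points 38 of 42 lie below it.

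Collagens had 12 members higher and 1 lower on vitamin A (median log2 0.94), and fibroblast markers 15 higher and 0 lower (median log2 1.53). The crosslinking and elastic fibre list had 8 higher and 1 lower (median log2 0.38, against 0.80 on the normal diet). Matrix proteases and inhibitors had 4 higher and 4 lower (median log2 0.23), against 7 and 0 on the normal diet. Whether these counts differ between the diets was not tested. Col14a1 changed by log2 3.29 on the normal diet and 3.50 on vitamin A, Col1a1 by 2.66 and 2.22, Lox by 2.72 and 1.63 and Loxl2 by 1.98 and 1.53. For Lox the difference between the diets was log2 -1.09 (SE 0.31), with an unadjusted p of 0.00211 and an adjusted p of 0.309. Globins also fell on both, with Hbb-bs at log2 -7.87 and -9.17.

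The median change of the mitosis list differed in sign between the diets, but no member passed the test of the difference. The list had a median log2 of 1.22 on the normal diet and -0.45 on vitamin A, where 0 rose and 1 fell. The difference was below 0 for all 55 members, and 48 had an unadjusted p under 0.05, but the lowest adjusted p was 0.174. All members were measured in the same bladders, so these counts are not independent. Mki67 on vitamin A stood at 198, 124 and 99.9 CPM at 1 day and at 52.1, 58.4 and 142 CPM at 3 days, so that each bladder at 1 day lay above those of the normal diet at 1 day. Cenpf went from 59.1, 33.8 and 18.1 CPM to 26.2, 27.2 and 37.4 CPM there, with overlapping groups. Gsta2, which fell on the normal diet, stood at 22.5, 35.3 and 26.3 CPM and then at 19.1, 24.3 and 20.1 CPM on vitamin A (log2 -0.38, adjusted p = 0.268), and the difference between the diets had an adjusted p of 0.19. Over all genes the test of the difference called 0 in edgeR, with 1732 at an unadjusted p under 0.05, and 87 in DESeq2.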

How the data were processed

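The deposited table holds whole-number read counts per gene for 18 libraries. The submitters' processing notes name the build GRCm39 and, with no role for any of them, the tools featureCounts (1.5.0-p3), HISAT2 (2.0.5) and DESeq2 (1.20.0). Whether counting used strand, and how multiply aligned reads were handled, is not given there. Of 60750 features, 14417 without a gene name, which carried 0.474% to 0.5658% of the counts of the 6 libraries, were left out. Deposited FPKM values and diet comparison tables were not used.

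The test was edgeR's robust quasi-likelihood test (edgeR 4.0.16, R 4.3.3, TMM scaling, filter on low counts by group, 2-sided). It fitted 1 mean to each of the 6 groups on all 18 libraries, which leaves 12 residual degrees of freedom. Adjusted p-values are Benjamini-Hochberg values over 19323 genes for each contrast, with a threshold of 0.05. The procedure was tested on simulated data. P-values set each change against a spread estimated over all 18 libraries, those on vitamin A among them.

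Members and lists were chosen with earlier results of these data known. Named genes are up to 15 each way with the largest change among called genes with non-overlapping CPM and a mean log2(CPM + 0.5) of at least 2, up to 4 called members of each list, and a fixed set of genes. Other called list members are named to complete their lists, chosen after their values were seen, as were Col4a1, Col4a2, Col17a1, Mcm2, Pcna and Gm3776. Promoter windows were matched to RefSeq by symbol. Alternatives were other scalings, filters, tools and library sets, DESeq2 1.42.0, the replicate number as a block, each library left out in turn and, added after seeing the data, thinning to equal depth.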

Additional observations from a re-analysis of the deposited data

How the results depend on the processing

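Among genes higher at 3 days the count was 236, and 493 both with DESeq2 and with only the 6 libraries in the fit. Leaving out 1 library gave 61 to 220. Among genes lower the count was 42, and 171 with DESeq2 and 215 with only the 6 libraries, and 12 to 36 without 1 library. The share of higher genes among calls was 84.9%, 74.2% with DESeq2 and 69.6% with only the 6 libraries. DESeq2 called 1726 genes on vitamin A against 819, and 87 for the difference between the diets against 0. The mean correlation of a library with the others of its group was 0.9478 to 0.9562 after cyclophosphamide on vitamin A. It was 0.969 to 0.9742 in the 6 libraries of the comparison. The cause of the shifts in calls, and the part of this difference in them, was not tested. Correlations of deviations between the days were -0.039 to 0.020 for same-numbered libraries and -0.0414 to 0.0305 for differently numbered ones. So few libraries cannot exclude that mice were paired. With the replicate number as a block 216 genes were higher and 33 lower. Of 63 called named genes DESeq2 kept 63, the block 60, only the 6 libraries 61, and 32 held in every fit without 1 library. Without a filter on low counts 3 mitosis genes were called.

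Genes whose sign turned had adjusted p-values of 0.83 or more between the days. Over the fits without 1 library the log2 change of S100a8 ranged from -2.61 to 0.50 (without replicate 3 at 1 day), Upk2 from -0.17 to 0.0034 (without replicate 1 at 1 day), Shh from -0.16 to 0.11 (without replicate 1 at 1 day, and 0.02 without replicate 2 at 3 days) and Acta2 from -0.36 to 0.035 (without replicate 1 at 3 days, and 0.03 without replicate 2 at 1 day). Upk3a ranged from -0.22 to 0.12 (without replicate 1 at 1 day, and above 0 also without replicate 2 at either day), and was at 0.023 without TMM scaling. Without replicate 1 at 3 days Krt14 was at -0.14 (up to 0.83 in the other fits), Hbegf at -0.20 (up to 0.54) and Myh11 at 0.10 (down to -0.55).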

Other observations

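Some genes that fold and process procollagen passed the test and others did not, and all of those given here were picked after their values were seen. P3h1 and P3h3, prolyl hydroxylases of procollagen, changed by log2 1.18 (adjusted p = 0.0103) and 0.93 (adjusted p = 0.0092), and P3h2 (log2 -0.57, adjusted p = 0.229) and P3h4 (log2 0.10, adjusted p = 0.883) did not pass. Fkbp10 and Fkbp14, chaperones of the same pathway, rose by log2 1.00 and 1.27, and Creb3l1, a transcription factor of collagen-secreting cells, by log2 1.65 (adjusted p = 0.001). Bmp1, which removes the C-terminal propeptide, rose by log2 0.88, Pycr1, which makes proline, by 1.94, and Mrc2, a receptor that takes up collagen, by 1.79. The prolyl and lysyl hydroxylases P4ha1 (log2 -0.13), P4ha2 (0.38), Plod1 (0.36), Plod2 (0.05) and Plod3 (-0.06) did not pass. Serpinh1, the collagen chaperone HSP47, stood at 193, 312 and 279 CPM at 1 day and 380, 489 and 491 CPM at 3 days, without overlap and with an adjusted p of 0.106.

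Some genes of the circadian clock passed and others did not. Those given here were again picked after their values were seen, so no share can be read from them. Arntl went from 5.54, 5.12 and 4.34 CPM to 10.7, 14.4 and 7.76 CPM (log2 1.08, adjusted p = 0.0396). Bhlhe40 and Bhlhe41, repressors that act on the clock, fell by log2 0.86 (adjusted p = 0.0481) and 0.63 (adjusted p = 0.0241). The Bhlhe40 call was lost without any library but replicate 3 at 3 days (adjusted p = 0.0811 to 0.224), and its adjusted p was 0.0515 with RLE scaling, 0.069 without TMM scaling, 0.0529 with at least 10 counts in each of the 6 libraries and 0.0564 after thinning to equal depth. Dbp, a clock output gene, stood at 123, 138 and 168 CPM and then at 64.5, 61.9 and 99 CPM, without overlap (adjusted p = 0.0904). Clock, Per1, Per2, Per3, Cry1 and Cry2 had adjusted p-values of 0.138 (Per2) to 0.971 (Clock). The hour at which bladders were taken is not given in the sources used here, and its part was not tested.

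Single genes at low levels, also picked after their values were seen, follow. Cntn4, a contactin of neural cell adhesion, stood at 0, 0.605 and 0.532 CPM at 1 day and 9.05, 17.5 and 12.3 CPM at 3 days (log2 4.97, adjusted p = 0.000223), and on vitamin A it changed by log2 5.28. Cd33, Clec12a and Gpr34, receptors of myeloid cells outside the macrophage list, rose by log2 2.59, 2.11 and 1.77 at levels of at most 8.73 CPM.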
